A study of Saccharomyces cerevisiae with 8 samples.

Results

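The transcript levels described here are those of the wild-type (WT) strain of the study, taken alone from its 4 WT arrays with no comparison of strains. WT was Saccharomyces cerevisiae DBY2059, a MATα haploid with the leu2-3, 112 allele. Its 4 cultures were grown separately at 30 °C in a synthetic medium with 2% dextrose as the carbon source, 0.25% L-glutamine in place of ammonium sulfate as the nitrogen source, and L-leucine at 25.2 mg/L for the leu2 allele, and were taken at about 8000000 cells per ml. Total RNA was copied into biotin-labelled cRNA from an oligo-dT primer and hybridised to Affymetrix Yeast 2.0 arrays, 1 array per culture, so the values cover polyadenylated RNA and lean towards 3′ ends. Each probe set named as 1 S. cerevisiae gene in the platform's gene table was ranked by its mean signal over the 4 arrays. There were 5498 of these among the 10928 probe sets of the array, and they stand for 5449 genes. Where a gene had several probe sets, the brightest represents it. One strain in 1 medium at 1 cell density was measured, so the levels describe that state only.

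Yeast on plentiful glucose takes the sugar up by facilitated diffusion through hexose transporters and ferments most of it to ethanol. Glucose repression meanwhile holds down genes for other sugars, for gluconeogenesis, for fatty acid oxidation and, in part, for respiration. Glutamine is a preferred nitrogen source, and by nitrogen catabolite repression it holds down genes for the use of poor ones. Fast growth places a large demand on ribosome production. Many yeast genes have a paralog left from an ancient whole-genome duplication, and the members of such a pair often differ in the conditions in which they are used.

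A value in these results is a MAS5 signal in array units on a linear scale, and an error is the standard deviation (SD) over the 4 cultures. Signals of different probe sets depend on how well their own probes hybridise, and are neither counts of molecules nor divided by gene length, so an order of genes is an order of signals. The arrays give a measure of how far this goes. Among the 47 genes with several probe sets, the brightest set exceeded the dimmest by a median of 1.46 times, and in 10 genes by 4 times or more. In 37 of the 47 the brightest set is marked as matching several transcripts, so this spread also holds signal from other genes. Only 2 of the genes had sets for 1 transcript alone. For 8 genes that also carry control probe sets at the 3′ end, middle and 5′ end, the 3′ signal lay between 0.622 and 6.73 times the 5′ signal, and the brightest of the 3 positions exceeded the dimmest by a median of 2.56 times. Differences between genes of about that size or less are therefore given as signals, with no statement on which transcript is more abundant. Probe sets that the array design marks as matching several transcripts are called shared below, and their signal cannot be assigned to 1 gene.

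The cultures did not all look alike. Log2 signals correlated at 0.990 between cultures 1 and 4 and at 0.989 between cultures 2 and 3, but at 0.978 to 0.979 for the 4 other pairings. Heat shock genes were the most visible difference, with higher signals in cultures 1 and 4, and culture 3 stood alone in pheromone-induced genes. Both patterns are described below with values per culture. Means without these cultures are given for HSP82, HSP104, FIG1 and AGA1, and the other means are over all 4 cultures.

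Nearly the whole measured genome gave a signal. The array carries 1746 probe sets named as 1 Schizosaccharomyces pombe gene, for which the samples hold no RNA, and the 95th percentile of their signals served as the background of an array. It lay between 12.5 and 13.5, with a mean of 13.1. Of the 5498 probe sets, 5397 (98.2%) exceeded it on all 4 arrays and 38 on none. The median of the mean signals was 1244, and the middle 50% ran from 569.9 to 2693. A probe set was called near background when its mean was at most 5 times the background, that is at most 65.6 units. This held for 312 probe sets (5.67%), and for 301 genes (5.52%) when each was taken by its brightest set. Of the 312, 211 still exceeded the background on every array, so near background does not mean without signal. At the other end, the top 5% of the ranking is called the top class, 275 probe sets that reached 9180.1 or more and belonged to 260 genes, 4.77% of all genes by their brightest set.

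**Figure D1:**
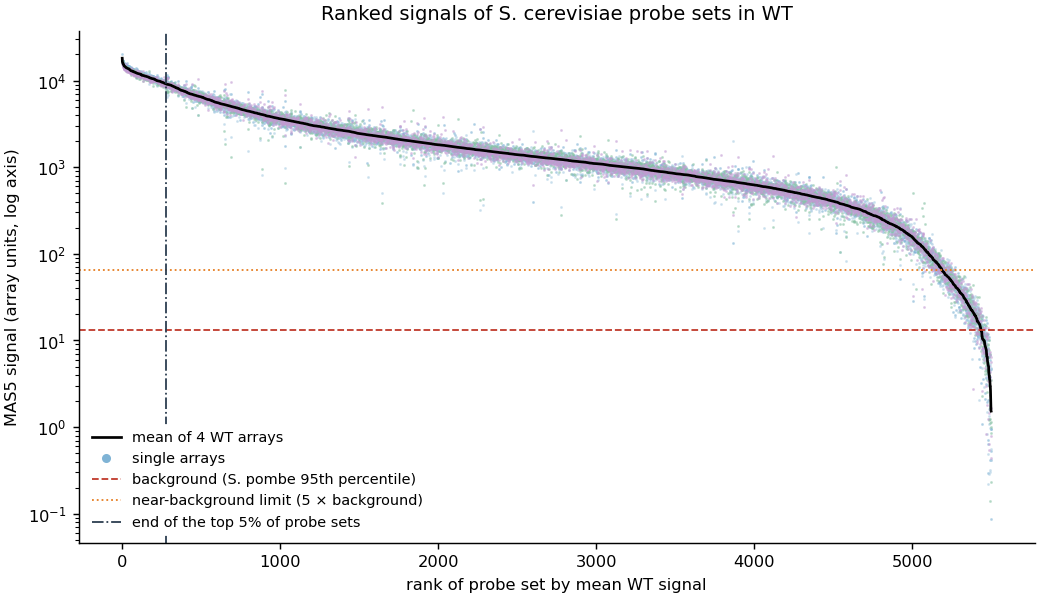
Signal of each S. cerevisiae probe set (vertical axis, array units, log scale) against its rank by mean WT signal (horizontal axis). The black line is the mean of the 4 WT arrays and the points are single arrays; dashed, dotted and dash-dotted lines mark the background at 13.1, the near-background limit at 65.6 and the end of the top 5% at rank 275.

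The upper end of the ranking of signals was flat. Whether signal rises in proportion to RNA amount at this end was not tested, so the values and shares here are those of signals. The highest mean was 18110.0 and the probe set at rank 50 still reached 13268, 1.36 times less. The top class held 25.5 ± 0.540% (SD, n = 4) of the summed signal of all probe sets, the upper 25% held 67.6% and the upper 50% 87.5%. Near-background probe sets held 0.0745 ± 0.00257%. Signals at the top also varied least between cultures, with a median coefficient of variation of 4.47% in the top class and 25.8% near background, against 9.43% over all probe sets.

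CUP1-1, which encodes the copper metallothionein, had the highest signal of all, with 19983, 17646, 16984 and 17828 in cultures 1 to 4. Its probe set is shared, and CUP1 is known to be repeated in tandem in many strains, so the value is that of all copies together. Of the 25 genes with the highest means, 16 encode ribosomal proteins. Others among the 25 belong to fermentation, protein folding and the cell wall. ENO2, a glycolytic enolase, averaged 15776 ± 996, and GPM1, the phosphoglycerate mutase, averaged 14614 ± 935. SSB1, a chaperone of the Hsp70 class that binds nascent chains at the ribosome, reached 15810.5 ± 716 from a shared probe set. Its specific set averaged 12414, so its place in the ranking rests on the shared one. YEF3, the fungal elongation factor 3, reached 15750.3 ± 293. CCW12, a mannoprotein of the cell wall, averaged 14627 ± 652. SHM2, the cytosolic serine hydroxymethyltransferase that supplies one-carbon units, averaged 14579.6 ± 299. TIF2, one of the pair of genes for translation factor eIF4A, had 14144 ± 251 from a shared probe set, and TMA19, a conserved ribosome-associated protein, had 14323 ± 521. Neighbours in this order could not be separated: from RPS21B at 15441 ± 967 to SHM2, each gene lay within 1 SD of the next.

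Ribosomal proteins formed the brightest group. All 127 measured genes of the cytosolic ribosome were above the median of all genes, 109 of them were in the top class, and their median was 11910.5, against 1243 for all genes. They made up 41.9% of the 260 genes of the top class. Together they held 11.7 ± 0.293% of the summed signal (SD, n = 4). The 3 brightest were RPS21A, a small-subunit protein, with 17294, 16658, 16071 and 15604 in cultures 1 to 4, RPS15, also of the small subunit, with 17018, 16265, 16864 and 15024, and RPL3, of the large subunit, with 16853, 16137, 15905 and 15215. Every one of these values lay far above the upper quartile of the ranking. The 3 dimmest were RPS9A at 4774 ± 335, RPL15B at 1831 ± 150.3 and RPL41A at 1733 ± 346, the last from a shared probe set for a gene that encodes an extremely short protein.

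Most ribosomal proteins of yeast are encoded by a pair of nearly identical genes, called A and B. Both copies had a probe set for 48 proteins, and the brighter copy exceeded the dimmer by a median of 1.17 times, less than the spread seen between probe sets of 1 gene. In 40 of the pairs the ratio was under 1.5. The same copy was brighter in all 4 cultures for 39 of 48, with the A copy brighter by its mean in 27 and the B copy in 21. In 14 of the pairs at least one probe set was shared, and the 34 others had the same median ratio, 1.17. Only 3 pairs reached a ratio of 2. RPL15A, a large-subunit protein gene, had 9557, 10136, 9832 and 9834 in cultures 1 to 4, against 1865, 1985, 1625 and 1848 for RPL15B, a ratio of means of 5.37. RPS9B, of the small subunit, had 14501, 13856, 13819 and 12578, against 4430.5, 5194, 4875 and 4596 for RPS9A, a ratio of 2.87. RPS10A averaged 14292 ± 1222, against 5793 ± 342 for RPS10B, a ratio of 2.47 in which neither probe set is specific. The specific sets of RPS10A and RPS10B averaged 11471 and 5177. The groups of 4 values did not overlap in any of the 3 pairs, which follows from picking pairs of such a ratio. Overlap was not counted over all 48. At the other end, RPL20B and RPL20A, RPL24B and RPL24A, and RPS11B and RPS11A each differed by a ratio of 1.01 and changed order between cultures.

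The rest of the cytosolic translation machinery followed closely. Translation factors had a median of 8179, with 11 of 29 genes in the top class, and cytosolic aminoacyl-tRNA synthetases one of 8794, with 9 of 21. YEF3 was the brightest factor, and its paralog HEF3 was among the dimmest at 146 ± 25.6; TIF2 followed YEF3, and TEF2, a gene for elongation factor 1 alpha, averaged 13723 ± 655 from a shared probe set. EFT2, one of the pair for elongation factor 2, averaged 13481 ± 504, also shared. The gene pair for eIF5A was unequal, with 12099 ± 688 for HYP2, the aerobic gene, against 2231 ± 1059 for ANB1, which is known to be raised without oxygen. TIF4632, a gene for eIF4G, averaged 1592 ± 58.5. Among the synthetases, DED81, for asparaginyl-tRNA synthetase, was brightest at 11441 ± 357, followed by YDR341C at 11033 ± 317 and by ILS1, for isoleucyl-tRNA synthetase, at 10571 ± 199.9. All 21 synthetases but GRS2 were in the upper 25% of the ranking, with GLN4, for glutaminyl-tRNA synthetase, at 5872 ± 406 and WRS1, for the tryptophanyl enzyme, at 5070.1 ± 243. GRS2, the second gene for glycyl-tRNA synthetase, averaged 460.0 ± 50.1.

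Factors that build ribosomes and transcribe their genes lay one step lower. The 48 ribosome biogenesis genes had a median of 4684, with 44 in the upper 25%, and ranged from 11156 ± 568 for NHP2, 10296 ± 167 for NOP1 and 10244 ± 322 for GAR1, all proteins of the small nucleolar particles that modify ribosomal RNA, to 2108 ± 384 for UTP6, a part of the small-subunit processome. MPP10 and RRP9, of the same processome, averaged 2431 ± 204 and 2221 ± 537. Subunits of RNA polymerases I, II and III had a median of 3887. RPA135, the second largest subunit of polymerase I, was brightest at 8995 ± 601, followed by RPA34, also of polymerase I, at 7577 ± 311 and RPO26, common to all 3 enzymes, at 7067 ± 563. RPB9 of polymerase II averaged 1534 ± 65.7, and RPC25 and RPC17 of polymerase III averaged 1519.9 ± 273 and 1164 ± 103.

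Carbon metabolism showed a wide range within single reaction steps. Of the 26 genes from glucose to ethanol, 14 were in the top class, and the list as a whole held 1.68 ± 0.0740% of the summed signal (SD, n = 4). It nevertheless reached down to 3 genes in the lower 25% of the ranking, and these were minor isozymes of steps whose main gene was in the top class. ENO2 had 16980.0, 15417, 16074 and 14633 in cultures 1 to 4, and its paralog ENO1 had 13523, 11082, 11394 and 12739. Both enolase genes were bright, while the related ERR3 was near background at 53.1 ± 3.62. GPM1 averaged 14614 ± 935, against 1385 ± 117 for GPM3 and 213 ± 108 for GPM2, which are homologs that do not supply the main mutase activity. PGK1, the phosphoglycerate kinase and a gene without a paralog, averaged 14028 ± 764.

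Pyruvate kinase CDC19 had 14645, 14031, 14280.5 and 12887 in cultures 1 to 4, against 606, 421, 543 and 711 for PYK2, the isozyme known to be glucose repressed. The ratio of means was 24.5, and it lay between 18.1 and 33.3 in single cultures. Among pyruvate decarboxylases, which turn pyruvate into acetaldehyde, PDC1 averaged 13647 ± 487, PDC5 averaged 1539.7 ± 288 and PDC6 averaged 105 ± 26.9. Alcohol dehydrogenase ADH1, which makes ethanol, had 12953, 11767, 12472 and 11552, and ADH2, the glucose-repressed enzyme that uses ethanol, had 79.5, 115, 112 and 70.6. The lowest ratio of ADH1 over ADH2 in a single culture was 102. The mitochondrial isozyme ADH3 was bright at 8999 ± 213, ADH5 reached 4991 ± 1078 and ADH4 1813 ± 143. Glyceraldehyde-3-phosphate dehydrogenase had 13662 ± 932 for TDH3, against 6628 ± 3175 for TDH1, whose level differed widely between cultures.

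Among genes of sugar phosphorylation HXK2, the hexokinase of glucose-grown cells, had the highest signal, with 11155, 10656, 10525 and 10178 in cultures 1 to 4. Its paralog HXK1 averaged 1263 ± 409. GLK1, the glucokinase, had 6456, 2046, 2195 and 5655, and EMI2, its paralog, averaged 2085 ± 999. GPP1, a phosphatase of glycerol synthesis, averaged 11154 ± 549.8, against 1182 ± 303 for GPP2, and its partner step had 3807 ± 1805 for GPD1 and 2810.4 ± 755 for GPD2, both glycerol-3-phosphate dehydrogenases. Cytosolic aldehyde dehydrogenase ALD6 had 7332, 1558, 2793 and 6071 in cultures 1 to 4, a range too wide to place it in the ranking. Mitochondrial ALD5 averaged 3784 ± 216 and ALD4 averaged 1276 ± 288, while ALD2 and ALD3 averaged 363 ± 11.8 and 84.6 ± 12.002. Acetyl-CoA synthetase ACS2 averaged 6454 ± 457, against 519.9 ± 88.7 for ACS1, the isozyme held down by glucose, a ratio of 12.4. PGM1, a phosphoglucomutase, averaged 2686 ± 129, against 627 ± 281 for its paralog PGM2.

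Hexose transporters split into a bright set and a set near background, with little between. The 17 genes for uptake and sensing had a median of only 39.9, and 10 of them (58.8%) were near background, against 5.52% of all genes. HXT3, a low-affinity transporter, had 10132, 9999, 10288 and 10482 in cultures 1 to 4 and was alone in the top class. HXT2, which is known to be induced by low glucose, had 6725, 6109, 7476 and 8232, HXT1, induced by high glucose, had 4449, 6829.5, 5883 and 5748, and HXT4 had 5142, 4993, 6676 and 5114. The value for HXT7, a high-affinity carrier, was 1682 ± 548 from a shared probe set. None of the remaining transporters exceeded the near-background limit. HXT9 averaged 53.5 ± 10.9, HXT5 39.9 ± 4.32, GAL2, the galactose permease, 35.3 ± 3.75, and HXT8 28.5 ± 4.05. HXT14 averaged 28.1 ± 4.88 and HXT17 24.6 ± 9.48. HXT11 at 10.2 ± 4.59, HXT15 at 8.33 ± 4.94, HXT13 at 6.36 ± 4.55 and HXT10 at 3.58 ± 1.69 lay below the mean background itself. The probe sets of HXT7, HXT9, HXT15 and HXT17 are shared.

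**Figure D2:**
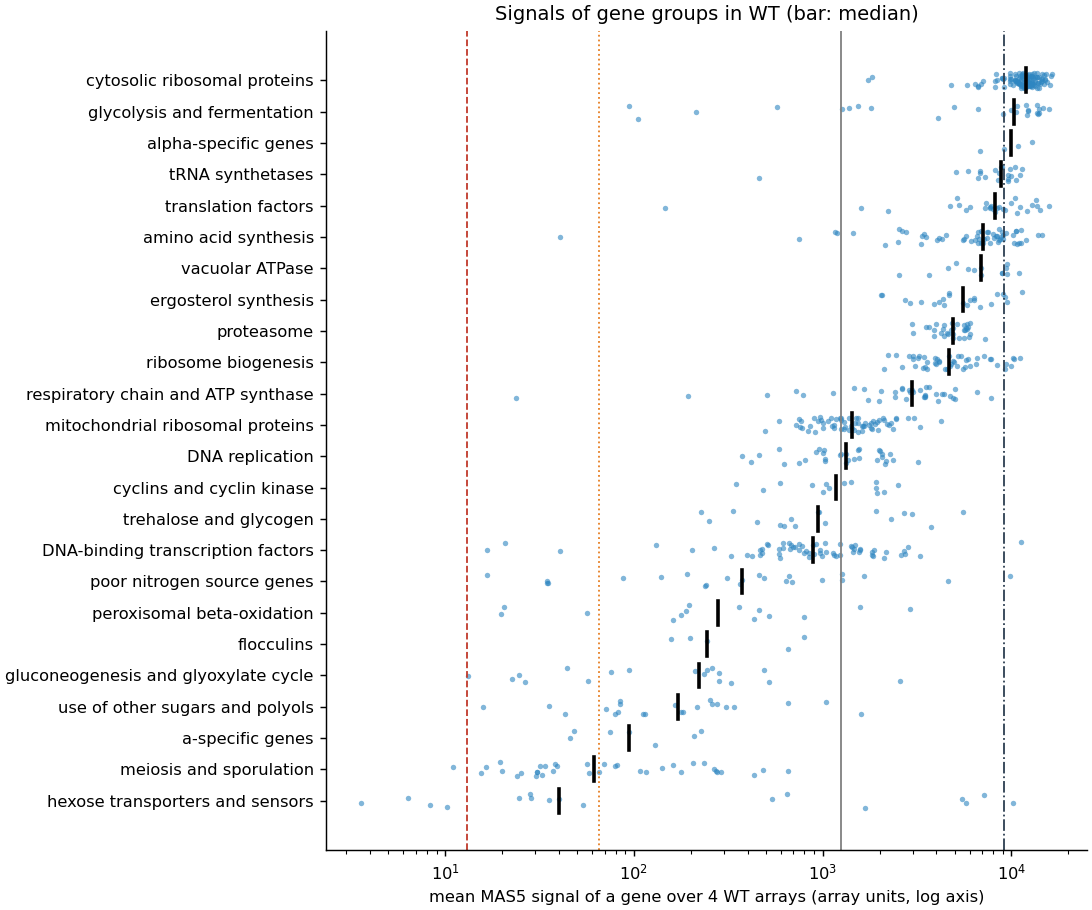
Mean signal of each gene over the 4 WT arrays (horizontal axis, array units, log scale) in 24 gene groups, ordered by their median (black bar). Dashed, dotted, solid and dash-dotted lines mark the background at 13.1, the near-background limit at 65.6, the median of all genes at 1243 and the start of the top class at 9180.1; ribosomal proteins sit at the bright end and hexose transporters, with 10 of 17 genes near background, at the dim end.

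Genes for other carbon sources were low as groups. Those for other sugars and polyols had a median of 172, with 19 of 22 in the lower 25%. SUC2, the invertase, was the brightest at 1592 ± 209.6, followed by the glycerol enzymes GUT1 at 1036 ± 109 and GUT2 at 653 ± 72.3, and the dimmest were DAK2, a dihydroxyacetone kinase, at 43.3 ± 18.5, GAL2 and STL1, a glycerol transporter, at 15.8 ± 3.10. Gluconeogenesis and the glyoxylate cycle had a median of 222, with 6 of 18 genes near background. MDH2, the cytosolic malate dehydrogenase, stood apart within that list at 2572 ± 398. MLS1, malate synthase, averaged 22.5 ± 6.10, SFC1, a mitochondrial succinate-fumarate carrier, averaged 13.2 ± 3.99, and CRC1, a carnitine carrier, averaged 24.5 ± 4.58. In peroxisomal fatty acid oxidation, POX1, the acyl-CoA oxidase, averaged 20.6 ± 4.03 and POT1, the thiolase, averaged 19.7 ± 4.13, close to the background, and SPS19 averaged 56.3 ± 14.5. Yet PEX11, which acts in peroxisome division, averaged 2910.0 ± 257, ANT1, an adenine nucleotide carrier of that organelle, averaged 1576 ± 226, and FOX2, the multifunctional enzyme of the pathway, averaged 799 ± 109.

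Respiratory genes lay in the middle and upper ranks. The tricarboxylic acid cycle had a median of 2390.4, and all 15 genes were in the middle 50% or the upper 25% of the ranking. LPD1, dihydrolipoamide dehydrogenase, was brightest at 7474 ± 94.8, FUM1, fumarase, followed at 4429 ± 380.3 and LSC1, a succinyl-CoA ligase subunit, at 4061 ± 252, while SDH1 and SDH2, of succinate dehydrogenase, averaged 955 ± 114 and 1068 ± 187 and LSC2 averaged 753 ± 51.9. Respiratory chain and ATP synthase genes had a median of 2957, with 22 of 37 in the upper 25% and none in the top class. ATP1 and ATP2, the catalytic core subunits of ATP synthase, averaged 7834 ± 333 and 6535 ± 155. NDE1, the external NADH dehydrogenase, averaged 5021 ± 692, against 23.6 ± 6.79 for its paralog NDE2, which was near background, and NDI1, the internal enzyme, averaged 507 ± 89.9. Mitochondrial ribosomal proteins clustered around 1424, with 60 of 65 in the middle 50%, from 4233 ± 262 for MRPS12, 3278 ± 330.5 for MRPS9 and 3053 ± 269.7 for MRPS16 down to 721 ± 112 for MRPS17, 588 ± 73.2 for RSM22 and 496 ± 60.5 for RSM25.

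Mitochondrial and other central isozymes differed in how one-sided they were. CYC1, the main cytochrome c gene, had 1053, 2332, 1715 and 1489 in cultures 1 to 4, against 287, 73.6, 86.5 and 331 for CYC7, and the ratio in single cultures ran from 3.67 to 31.7. Cytochrome oxidase subunit 5 had 3455 ± 319 for COX5A, the aerobic gene, against 723 ± 309 for COX5B, the hypoxic one. PET9, the major ADP/ATP carrier, averaged 6837 ± 369, against 981 ± 218 for AAC3 and 544 ± 86.7 for AAC1. Citrate synthases were even between CIT2, of the peroxisome, at 2743 ± 779.8 and CIT1, of the mitochondrion, at 2587 ± 712, with CIT3 near background at 44.2 ± 3.86. The 3 malate dehydrogenases were even too, with MDH1 at 3395 ± 149, MDH3 at 2847 ± 159 and MDH2 close behind. Isocitrate dehydrogenases that make NADPH were led by IDP1 at 2680.1 ± 455, against 284 ± 20.9 for IDP2 and 160.5 ± 22.3 for IDP3. In the pentose phosphate pathway, which supplies NADPH and pentoses, GND1 had 12736, 12036, 10895 and 11615, against 94.2, 109, 154 and 98.2 for GND2, a ratio of 104. TKL1, transketolase, averaged 11379 ± 423, against 30.4 ± 10.5 for TKL2, which was near background, a ratio of means of 374, and TAL1, transaldolase, averaged 9834 ± 445, against 163 ± 11.5 for NQM1.

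Isozymes listed as families of exactly 2 genes were also counted as pairs, which leaves out pairs within larger families, such as TKL1 and TKL2. Across 30 such pairs with both members measured, the same member was brighter in all 4 cultures in 30 of 30. Each member has its own probes, so this is a stable order of signals. It does not by itself show which transcript was more abundant. The ratio of means was 4 or more in 13 pairs and under 2 in 12, with a median of 3.35. The largest ratio among them was 108, for YEF3 over HEF3, and it lay between 97.9 and 144 in single cultures. TSA1, the main thioredoxin peroxidase, had 13825, 13829, 13654 and 13477 in cultures 1 to 4, against 148, 192, 216 and 204 for TSA2, a ratio of 72.1. PMA1, the essential proton pump of the plasma membrane, had 9687, 10006, 10368 and 10210.0, against 181, 239, 339.8 and 226 for PMA2, a ratio of 40.9. UBC4, a ubiquitin-conjugating enzyme, had 11159, 10171, 9805 and 11238, against 792, 719, 791 and 839 for UBC5, a ratio of 13.5. In all of these the 2 sets of 4 values lay far apart, which follows from ratios of this size. All but 2 of the 30 pairs were measured by specific probe sets, the exceptions being SSB1 over SSB2 and HTA1 over HTA2. By its specific set SSB1 averaged 12414, below the 12903 of SSB2, so the order of that pair depended on the probe set.

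**Figure D3:**
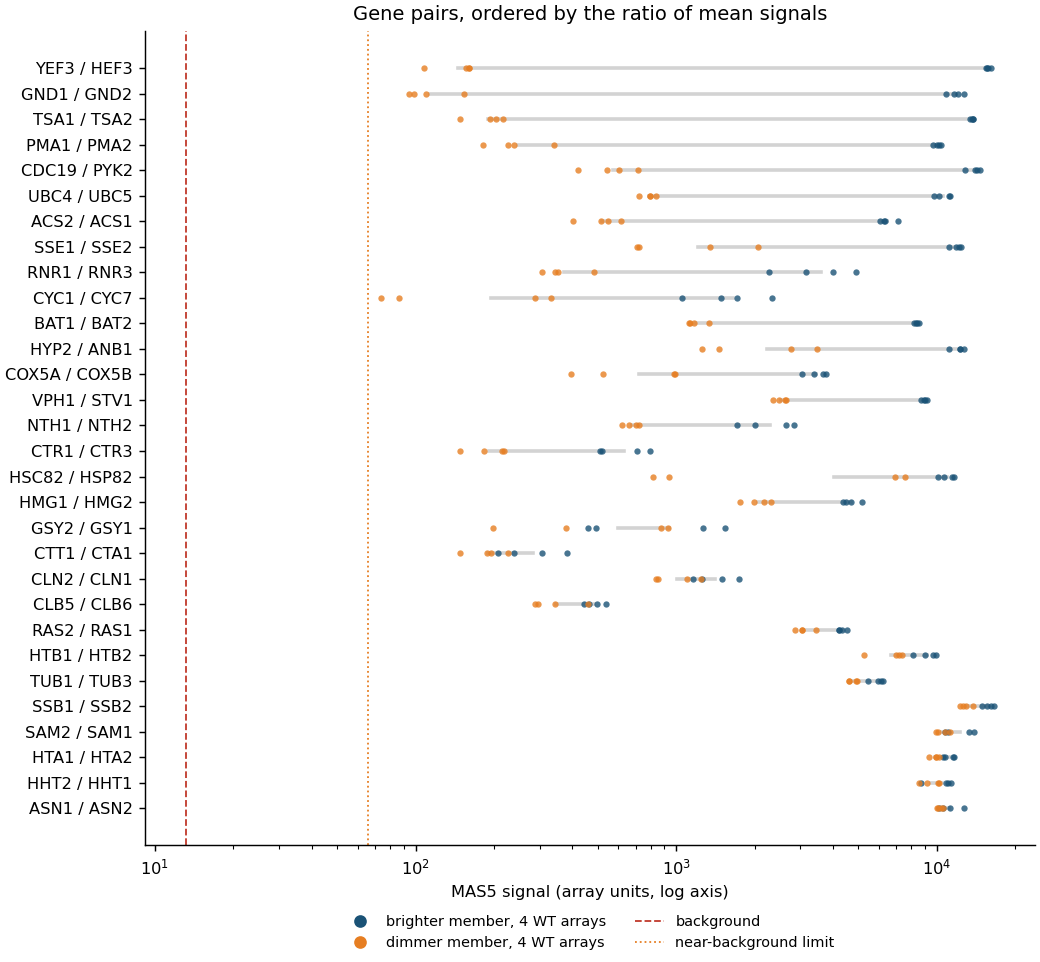
Signals of both members of 30 gene pairs on the 4 WT arrays (horizontal axis, array units, log scale), with the brighter member in blue, the dimmer in orange and a grey bar joining their means, ordered by the ratio of means from 108 for YEF3 over HEF3 to 1.09 for ASN1 over ASN2. Dashed and dotted lines mark the background at 13.1 and the near-background limit at 65.6; no member of a pair lay under that limit.

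In 5 pairs both members were in the top class by their brightest probe sets. These were ASN1 and ASN2, for asparagine synthetase, at 11183 ± 1082 and 10272 ± 225, SAM2 and SAM1, for S-adenosylmethionine synthetase, at 12282 ± 1599 and 10523 ± 622, SSB1 and SSB2 at 15810.5 ± 716 and 12903 ± 635, and the histone pairs HTA1 and HTA2, for H2A, at 11107 ± 537 and 9848 ± 368 and HHT2 and HHT1, for H3, at 10482 ± 1221 and 9526 ± 812. The value for HTA2 is from a shared set, and its specific set averaged 6570, below the top class. Tubulin TUB1 averaged 5936 ± 328, against 4761 ± 179.8 for TUB3, and RAS2 averaged 4329.7 ± 153, against 3103 ± 248 for RAS1, both small GTPases upstream of protein kinase A. In both pairs the lowest ratio of a single culture was above 1, at 1.19 and 1.22. Ratios in this range lay under the median ratio between probe sets of 1 gene.

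Nitrogen metabolism was led by the genes that make glutamate. GDH1, the NADP-dependent glutamate dehydrogenase, had 10593, 8012, 7863 and 10151 in cultures 1 to 4, against 1262 ± 106 on average for GDH2, which runs the reaction the other way, and 169.7 ± 19.6 for GDH3, the paralog of GDH1. GLN1, glutamine synthetase, averaged 8849.8 ± 938 in this glutamine medium, and GLT1, glutamate synthase, averaged 6031 ± 649. Ammonium permeases were lower, with 2446 ± 166 for MEP3, 908 ± 503 for MEP1 and 666 ± 280.1 for MEP2. Genes known to be held down by nitrogen catabolite repression had a median of 373, and 14 of 23 were in the lower 25%. DAL80, a GATA-type repressor of that system, averaged 16.6 ± 3.45, DAL4, the allantoin permease, 34.8 ± 10.5, and OPT2, a peptide transporter, 34.8 ± 8.89. The list was not uniform. ASP3-1, for secreted asparaginase, averaged 9829 ± 322 from a probe set shared with its identical copies, CAR1, arginase, averaged 4614 ± 444, and UGA1, a transaminase of 4-aminobutyrate use, averaged 1653 ± 261.

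Amino acid permeases covered a wide range. GNP1, a glutamine permease of broad range, was brightest at 7046 ± 464, followed by AGP1, also of broad range, at 6714 ± 544 and BAP3, for branched-chain amino acids, at 5589.9 ± 609. At the other end stood AGP2 at 182 ± 26.9, PUT4, the proline permease, at 87.8 ± 14.5 and ALP1, an arginine permease, near background at 61.2 ± 14.4. Genes for amino acid synthesis were bright in a medium whose amino acids were glutamine and leucine. Their median was 7033, with 50 of 59 in the upper 25% and 12 in the top class. Behind SHM2, the brightest were the lysine genes LYS9 at 13883 ± 592 and LYS12 at 11918 ± 730.2. The dimmest were HIS6, of histidine synthesis, at 1168 ± 192, PHA2, of phenylalanine synthesis, at 753 ± 46.8 and ARO9, an aromatic transaminase that also acts in tryptophan breakdown, near background at 40.7 ± 8.71. Branched-chain transaminases had 8368 ± 139 for BAT1, the mitochondrial enzyme, against 1192 ± 102 for BAT2, the cytosolic one. LEU2, the locus of the leu2-3, 112 allele, gave 2719, 3461, 3596 and 3711 in cultures 1 to 4, so an RNA from the mutant locus was detected.

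The sulfur pathway was among the brightest of the biosynthetic groups. Its 18 genes had a median of 8159, with 7 in the top class. SAM2 led it, followed by MET6, methionine synthase, at 12107 ± 666 and MET17, the enzyme that fixes sulfide, at 11318 ± 231. STR3 and STR2, which convert between cysteine and homocysteine, averaged 1706 ± 489 and 1445 ± 142, and MHT1, a methyltransferase that salvages methionine, averaged 1564 ± 534. For nucleotide synthesis the median was 6734, with the purine genes ADE6 at 12248 ± 624, ADE17 at 10698 ± 654 and ADE1 at 10523 ± 599 at its head. URA10, the minor orotate phosphoribosyltransferase, averaged 460.4 ± 59.7. IMP dehydrogenases, the entry to guanine nucleotides, had 9504 ± 106 for IMD3, 7595 ± 504 for IMD4 and 1551 ± 78.8 for IMD2, the last from a shared probe set. Ribonucleotide reductase had 4887, 3158, 2270.1 and 4012 for RNR1 in cultures 1 to 4, against 483, 306, 344 and 353 for RNR3, the large subunit known to be induced by DNA damage.

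Vitamin, phosphate and metal genes spanned the middle of the ranking. Thiamine and pyridoxine genes had a median of 669.8, from SNZ1, for pyridoxine synthesis, at 4861 ± 697, PHO3, an acid phosphatase regulated by thiamine, at 2859 ± 804 and THI6, of thiamine synthesis, at 1481 ± 142 down to THI4 at 182 ± 27.3, THI13 at 133 ± 15.7 from a shared probe set and THI2, the activator of these genes, at 97.3 ± 8.49. In the phosphate group, VTC1 and VTC4, of the polyphosphate polymerase, averaged 4963 ± 496 and 3059 ± 378, and PHO90, a low-affinity phosphate transporter, averaged 4827 ± 357. The 3 lowest of the 15 measured members differ in role. PHO5, the repressible acid phosphatase, averaged 348 ± 45.8, PHO89, a sodium-coupled transporter, 194 ± 128, and SPL2, which acts against low-affinity uptake, 53.9 ± 13.8. PHO84, the high-affinity transporter, and PHO89 varied most in this group, and PHO84 had 398, 2641, 1654 and 629.8 in cultures 1 to 4. For iron, FET3 and FTR1, the oxidase and permease of high-affinity uptake, averaged 8452 ± 499.8 and 6079.8 ± 358, and SIT1, a siderophore transporter, averaged 3784 ± 549, whereas FRE4, FIT1 and FRE5 averaged 173 ± 19.9, 151 ± 17.7 and 21.7 ± 7.63. Copper transporter CTR1 averaged 631 ± 141, against 191 ± 32.9 for CTR3.

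Chaperones were bright, and within families the constitutive member had the higher mean. The 30 chaperone genes had a median of 6949.5 and 9 were in the top class. Among cytosolic Hsp70 genes, SSA2 averaged 13982 ± 1270.2 and SSA1 6971 ± 1138, against 710.2 ± 464 for SSA4 and 575 ± 41.3 for SSA3. HSC82, the constitutive Hsp90, had 11652, 10682, 10098 and 11424 in cultures 1 to 4, and HSP82, the inducible one, had 6919.6, 815, 943 and 7528. The 2 Hsp90 genes were thus within a factor of 2 of each other in cultures 1 and 4 and more than 10 times apart in cultures 2 and 3. SSE1, an Hsp110, averaged 11900.0 ± 578, against 1210.3 ± 645 for SSE2. Small heat shock proteins were uneven, with HSP26 at 274 ± 58.9 and HSP12 at 135, 2012, 302 and 277 in cultures 1 to 4, high in culture 2.

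The 10 genes of the upper 50% of the ranking that varied most between cultures were BTN2, HSP82, HSP42, INO1, HSP78, RGI1, HSP30, PHO84, SPI1 and HSP104. BTN2, which acts in the sorting of misfolded proteins, had 3107, 507, 381 and 4979 in cultures 1 to 4, HSP42, a small heat shock protein, had 5769.8, 978, 652 and 6744, and HSP104, the disaggregase, had 7999, 2090.0, 1871 and 9173. HSP78, its mitochondrial counterpart, had 2573, 371, 431 and 2886. In all 4 of these the values of cultures 1 and 4 lay above those of cultures 2 and 3 without overlap. HSP30, a plasma membrane protein, had 7071, 2217, 1324 and 9512, SPI1, a cell wall protein of stress and stationary phase, had 2919.9, 761, 1054 and 4712, and RGI1 had 2159, 502, 663 and 3838. INO1, inositol-3-phosphate synthase, is not a heat shock gene and showed the same pattern, with 2787, 324, 419 and 2768. PHO84 ran the other way. The mean of HSP82 over all arrays, 4051, stood for neither pair, since it was 7224 without cultures 2 and 3 and 879 without cultures 1 and 4. Likewise HSP104 came to 8586 without cultures 2 and 3 and 1981 without cultures 1 and 4.

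Variation of this size was the exception. Of the 2724 genes of the upper 50%, 60 had an SD of log2 signals above 0.5 and 1229 had one below 0.1. In 54 of the 60, cultures 1 and 4 lay on one side of cultures 2 and 3 without overlap. Over all genes, cultures 1 and 4 both lay above the others in 25.4% and both below in 35.1%. The split itself was therefore common, and its size in the 60 was not. A smaller shift of the same kind ran through whole complexes. All 32 proteasome genes were higher in both cultures 1 and 4 than in either of cultures 2 and 3, whereas this held for 25.4% of all genes, and the median of the group was 5575, 4223, 4397 and 5465 in cultures 1 to 4. In the opposite direction, which held for 35.1% of all genes, 41 of 48 ribosome biogenesis genes and 55 of 65 mitochondrial ribosomal protein genes were lower in both cultures 1 and 4. The cultures share a label, and neither these pairs nor a treatment that would separate them is named in it, so the pattern is described and was not tested.

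Pheromone-induced genes behaved differently, with 1 culture apart. AGA1, an agglutinin anchor subunit, had 1774, 2278, 7778 and 2348 in cultures 1 to 4, FIG2, a cell wall protein of mating, had 914, 1084, 3584 and 1206, and FUS1, needed for cell fusion, had 655, 842, 2059 and 680.2. FIG1, a membrane protein of mating cells, had 28.2, 44.9, 509 and 32.6, near background in every culture but the third. Of the 11 genes of this group, 10 were highest in culture 3, against 27.9% of all genes, and PRM5, at 1901 ± 397, was the exception. Other pathway genes followed in part, with FAR1, which links pheromone to cell cycle arrest, at 2134, 2093, 4030.3 and 1789. YIL082W-A, from a shared probe set, had 1101, 1065, 4525 and 1276 and YGR109W-B had 666, 755, 2265 and 943, again high in culture 3. Levels of the dimmer members depended on that array: PRM2 averaged 119 ± 104 and PRM3 112 ± 72.4 over 4 arrays, and without culture 3 FIG1 averaged 35.2 in place of 154 and AGA1 2133 in place of 3544. The signals of the 7 a-specific genes, which would mark cells of the opposite mating type, summed to 692, 892, 904 and 823 in cultures 1 to 4, none of them at 0, and their part in the pattern was not tested.

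**Figure D4:**
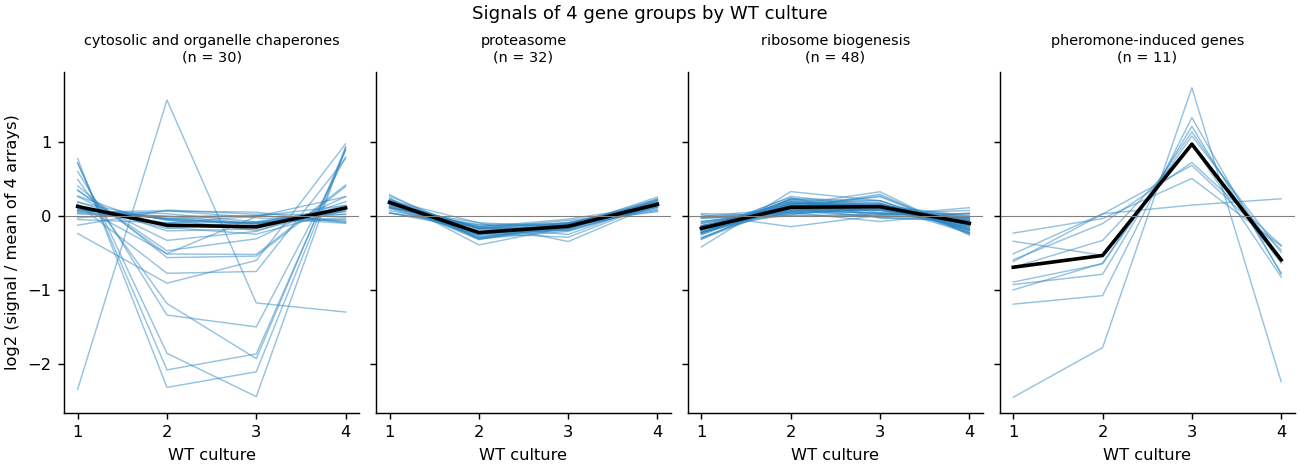
Signal of each gene in a WT culture relative to its mean over the 4 arrays (vertical axis, log2) for 4 gene groups, with 1 thin line joining the values of a gene and a black line for the median of the group; the order of the cultures is that of their numbers only. All 32 proteasome genes were higher in cultures 1 and 4 than in 2 and 3, and 10 of 11 pheromone-induced genes peaked in culture 3.

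Levels of mating-type genes matched the MATα label. The α-specific genes were bright, with MF(ALPHA)1, the main gene of the α-factor precursor, at 13053, 12835, 13194 and 12584 in cultures 1 to 4, MF(ALPHA)2, its partner, at 10348, 9228, 12973 and 10665, SAG1, the α-agglutinin, at 9095 ± 1109 and STE3, the receptor for a-factor, at 6792 ± 1352. The a-specific genes all lay in the lower 25%. STE2, the α-factor receptor, averaged 227 ± 16.7, MFA1, an a-factor gene, 208 ± 50.4 and STE6, the a-factor exporter, 129.9 ± 13.8. MFA2 averaged 93.8 ± 8.24, BAR1, the protease that degrades α-factor, 74.6 ± 15.6, and AGA2 and ASG7, at 48.4 ± 9.31 and 45.9 ± 17.95, were near background. The lowest α-specific value of any culture exceeded the highest a-specific one 23.1 times. Genes that both haploid types transcribe, most of them of the pheromone pathway, were moderate, from STE4, the Gβ subunit, at 4762 ± 276 through GPA1, the Gα subunit, at 3348 ± 801 and STE12, the transcription factor, at 2604 ± 730.3 to STE5, the scaffold, at 1061 ± 95.1, NEJ1, which acts in end joining, at 650.1 ± 65.1 and STE18, the Gγ subunit, at 488 ± 64.6.

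Meiosis and sporulation genes were mostly near background. Of 36 genes, 19 (52.8%) were near background, against 5.52% of all genes, 35 were in the lower 25% and the median was 61.5. The brightest were SPS1, a sporulation kinase, at 656 ± 213, MSH5, a meiotic mismatch repair homolog, at 483 ± 59.5 and RED1, of the synaptonemal complex axis, at 430.3 ± 89.9. SPO74, a spindle pole body protein of meiosis, averaged 16.4 ± 3.25, SPS2, a spore wall protein, 15.4 ± 5.81, and HOP2, which aids homolog pairing, 10.96 ± 6.15.

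Cell cycle genes, whose RNA is present in part of the cells of a growing culture, were moderate. Cyclins and their kinase had a median of 1182, with 12 of 14 in the middle 50%. FAR1 was highest by its mean, 2511, an order that rested on culture 3, followed by CKS1, a subunit of the kinase, at 2099.9 ± 128 and CLN3, the upstream G1 cyclin, at 1943 ± 294. SWE1, which inhibits the kinase, averaged 594 ± 149. Among cyclin pairs CLN2 averaged 1416 ± 260.4, against 1008 ± 201 for CLN1, both of G1, and CLB5 485 ± 40.8, against 346 ± 79.6 for CLB6, both of S phase. Of the mitotic cyclins, CLB1 averaged 1918 ± 409.7, CLB3 1289 ± 75.9, CLB2 1075 ± 321 and CLB4 881 ± 164. DNA replication genes had a median of 1327, with 28 of 32 in the middle 50%, from POL30, the sliding clamp, at 3184 ± 695, RFA2 at 2356 ± 731 and RFA3 at 2260.2 ± 322, both of the single-strand binding complex, to CDC6, a helicase loader, at 458 ± 130.4, CDC45 at 418 ± 107 and ORC6, of the origin complex, at 373 ± 27.9. In bulk samples a low level in all cells and a high level in few cannot be told apart.

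Histones stood well above the other cell cycle genes. Their 9 measured genes had a median of 9180.1 and all were in the upper 25%. Besides H2A and H3, given above, HTB1 averaged 9180.1 ± 813, against 6697 ± 956 for HTB2, the H2B pair, and HHF1, for H4, averaged 8669 ± 503 from a shared probe set. The linker histone HHO1 averaged 3399 ± 250.4 and the variant HTZ1 3399 ± 218. In the cytoskeleton, actin ACT1 was brightest at 13556 ± 245, COF1, cofilin, followed at 9497 ± 611 and TUB2, β-tubulin, at 8513 ± 183, against 1042 ± 131 for the septin SHS1, 1013 ± 106 for γ-tubulin TUB4 and 640.0 ± 121 for the myosin MYO1.

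Cell wall genes covered a wide range, led by CCW12, CWP2 at 11579.5 ± 111 and SCW4, a glucanase-like protein, at 11171 ± 452, while CHS1, a chitin synthase of repair, averaged 1586 ± 219, CWP1 1324 ± 216 and PIR3 405 ± 99.8. FKS1, the main glucan synthase, averaged 8590.1 ± 154, against 1634 ± 253 for GSC2 and 43.4 ± 7.45 for FKS3, which was near background. Flocculins, the adhesins that make cells stick, were low with a median of 245. FLO8, which is known as the activator of these genes and not itself an adhesin, averaged 791 ± 29.6, FLO9 655 ± 80.8 from a shared probe set, FLO10 245 ± 33.8, FLO1 198 ± 30.3 and FLO11 157 ± 11.9. RefSeq's gene table annotates FLO8 as a pseudogene, and its allele in this strain was not examined. Ion transport was led by PMA1 and by PMP2, a small regulator of that pump, at 9979 ± 279.6 and PMP3, also a small membrane protein, at 8100.2 ± 337, whereas TRK1 and TRK2, the potassium transporters, averaged 1154 ± 63.2 and 955 ± 34.7. ENA5, of the sodium pump cluster, averaged 3239.5 ± 232 from a shared probe set.

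Lipid synthesis lay in the upper 25% for most genes. Ergosterol synthesis had a median of 5561, with ERG11, the lanosterol demethylase, at 11377 ± 680.0, ERG6, a methyltransferase, at 9518 ± 508 and ERG2, an isomerase, at 9275 ± 603 at its head and ERG7 at 2746 ± 219.9 and ERG12 at 2048 ± 214 at its foot. HMG-CoA reductase had 4682 ± 350.1 for HMG1, against 2060.4 ± 238 for HMG2. Fatty acid synthesis was brighter still at its first steps, with ACC1, acetyl-CoA carboxylase, at 13061 ± 1081 and FAS1 and FAS2, of fatty acid synthase, at 11956 ± 728 and 10947 ± 1009.8. SCS7, a hydroxylase of sphingolipids, averaged 2555 ± 373 and PSD2, a phosphatidylserine decarboxylase, 1044 ± 54.3. Vacuolar ATPase genes had a median of 6902, from VMA10 at 10913 ± 651, VMA3 at 9527 ± 404 and VMA4 at 9448 ± 331 to VMA7 at 4635 ± 107 and VMA6 at 3643 ± 348. Its subunit a had 8942 ± 184 for VPH1, of the vacuole, against 2529 ± 136 for STV1, of the Golgi and endosomes, a ratio that stayed between 3.40 and 3.69 in single cultures.

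Vacuolar hydrolases were led by APE3, an aminopeptidase, at 8213 ± 341, PRC1, carboxypeptidase Y, at 6175 ± 40.7 and PEP4, the protease that activates the others, at 5649 ± 436, with PRB1 at 1271 ± 455, CPS1 at 688 ± 181 and ATH1, acid trehalase, at 227 ± 40.3 lowest. Storage carbohydrate genes varied between cultures, with medians of 1263, 459.6, 565 and 1512 in cultures 1 to 4, once more higher in 1 and 4. UGP1, which makes UDP-glucose, averaged 5505 ± 952, TPS1 and TPS3, of trehalose synthase, 3745 ± 1315 and 2988 ± 697, GLG2, a glycogen primer protein, 336 ± 30.2, and GPH1, glycogen phosphorylase, 249 ± 156. Trehalase NTH1 averaged 2302 ± 529, against 676 ± 47.3 for NTH2, and glycogen synthase GSY2 940.2 ± 549, against 596 ± 364 for GSY1. The means of GSY2 and GSY1 differed by less than 1 SD over the cultures. Within each of the 4 cultures GSY2 had the higher signal, by 1.30 to 2.33 times. Antioxidant enzymes were led by TSA1, AHP1, a peroxiredoxin, at 12974 ± 814 and SOD1, superoxide dismutase, at 12213 ± 245, against 283 ± 77.5 for CTT1 and 189 ± 32.4 for CTA1, the catalases of cytosol and peroxisome.

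The 32 proteasome genes were all in the upper 25% and none was in the top class, from RPN1 at 7283 ± 711, PUP3 at 6038 ± 1187 and RPN5 at 6037 ± 569.6 to PRE5 at 3508 ± 713, RPN11 at 3000.2 ± 429.6 and RPN12 at 2988 ± 513. Secretory pathway genes were likewise all in the upper 25%, with a median of 4659, from ARF1 at 8693 ± 233 and YPT1 at 7564 ± 217, both small GTPases, and SEC61, the translocon channel, at 7012 ± 181 to SEC18 at 2913 ± 86.2, SRP14 at 2786 ± 88.9 and SEC17 at 2748 ± 96.8. Ubiquitin genes that are fused to ribosomal proteins were in the top class, with RPS31 at 14591 ± 691 and RPL40A at 11372 ± 729. UBC12, of the Rub1 pathway, averaged 554 ± 78.1 and UBC11 301 ± 139.

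Regulators were moderate. Signalling kinases and GTPases had a median of 1573. HOG1, the osmotic stress kinase, was among the brighter members at 5552 ± 294, with SSK1 at 476 ± 44.3, STE11 at 476 ± 31.3 and MKK2 at 393 ± 28.7, all of kinase cascades, lowest. Protein kinase A had 1632 ± 217 for TPK3, against 1122 ± 333 for TPK2, and the third gene was not analysed here. DNA-binding transcription factors had a median of 885, below that of all genes, and 45 of 65 lay in the middle 50%. GCN4, the activator of amino acid synthesis, whose protein is controlled mainly in translation, was alone in the top class at 11189 ± 479. RPN4, the activator of proteasome genes, averaged 3296 ± 396 and MCM1 averaged 2841 ± 321. CAT8 and SIP4, activators of gluconeogenic genes, averaged 40.4 ± 3.70 and 20.7 ± 8.85, and with DAL80 they were the 3 factors near background.

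Anaerobic genes had a median of 1005, led by HEM13, of heme synthesis, at 3873 ± 1009, ANB1 and TIR1, a mannoprotein, at 1786 ± 970.0, against 338 ± 55.4 for TIR2, 328 ± 34.9 for PDR11 and 29.5 ± 9.70 for DAN1. Seripauperins, a family of small wall proteins, had a median of 377, from PAU23 at 3351 ± 106, PAU17 at 1955 ± 124 and PAU18 at 1041 ± 106 to PAU5 at 79.1 ± 7.11, PAU3 at 40.03 ± 7.30 and PAU21 at 26.7 ± 7.37, and 10 of 13 were measured by shared probe sets. The values for PAU23 and PAU17 are from specific sets, and a further, shared set of each averaged 421 and 761. In the COS family, COS2 averaged 6189.9 ± 196 and COS4 4258 ± 357, both shared, and COS6 1242 ± 196, against 139 ± 20.4 for COS10, 129 ± 18.2 for COS111 and 101 ± 42.01 for COS12. The aryl-alcohol dehydrogenase family ran from AAD4 at 1050.3 ± 88.7 and AAD3 at 725 ± 57.1, both shared, through AAD10 at 519.8 ± 90.1 to AAD14 at 315 ± 22.9 and AAD6 at 125 ± 35.9.

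Position on the chromosome went with level. Of the 235 measured genes among the 10 outermost at each end of the 16 chromosomes, 20.4% were near background and the median was 310.2, against 4.86% and 1276 for the 5211 inner genes. The share near background was 25.5% for the outermost 5 genes, 16.8% for genes 6 to 10, 9.28% for genes 11 to 20, 3.81% for genes 21 to 40 and 4.70% further in. Probe sets at the ends were also more often shared, 22.6% against 1.23%, and shared sets add up the signals of several family members. Only 1 of the 235 outer genes was in the top class, against 259 of the 5211 inner genes.

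**Figure D5:**
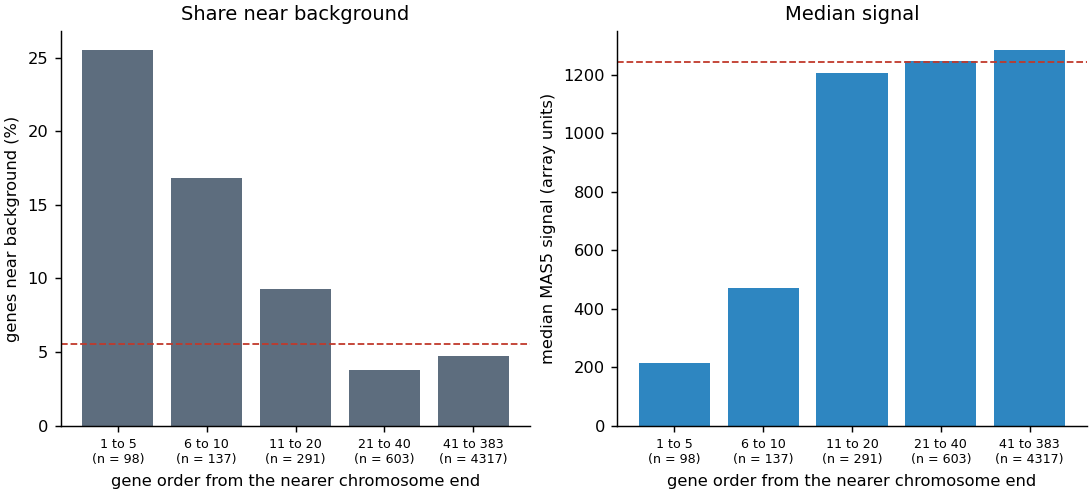
Share of genes near background (left, percent) and median signal (right, array units) by gene order from the nearer chromosome end, in 5 bands with the number of measured genes under each. Dashed lines give all ordered genes on the left and all genes on the right; the share was 25.5% in the outermost band and 3.81% in the fourth.

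Near-background genes as a class were short and often unnamed. Genes with only a systematic name made up 43.3% of the near-background probe sets and 1.82% of the top class, against 9.35% of all. The median coding length was 714 bases near background and 894 in the top class, against 1236 over all genes. Ribosomal proteins are short, and the 151 other genes of the top class had a median length of 1185. Across genes, length and signal had a Spearman correlation of -0.00209, a description over genes that are not independent. The 5 highest genes with only a systematic name were YDR316W-B at 12834 ± 557, YDR524C-B at 11411 ± 1026, YDR341C at 11033 ± 317, YDR261W-B at 9552 ± 293 and YHR020W at 9537 ± 307. Of these YDR316W-B and YDR261W-B were measured by shared probe sets.

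Both class limits cut a continuous ranking. Just inside the top class stood GUK1, guanylate kinase, at 9224 ± 276, SUI1, initiation factor eIF1, at 9197 ± 487 and HTB1 at 9180.1 ± 813, and just outside it URA5, of pyrimidine synthesis, at 9176 ± 535, RPS26B at 9161 ± 222 and GDH1 at 9155 ± 1419. Just above the near-background limit were ABM1 at 67.2 ± 20.6, YFL067W at 66.99 ± 12.98 and ADH7 at 66.2 ± 13.4, and just below it DIT1, of spore wall synthesis, at 65.2 ± 3.07, YHL042W at 63.9 ± 9.71 and SPG1 at 63.6 ± 8.38. In each case the gap across the limit was smaller than the SD of its neighbours.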

How the data were processed

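Gene names came from the platform's gene table, and 12 older symbols were replaced by way of RefSeq's R64 gene table, which also gave coding length (a multiple of 3 for 96.97% of genes) and gene order. Of the array's other probe sets, 1746 were named as 1 S. pombe gene, 213 were controls, 3470 carried no name in that table and 1 named several genes. Several duplicated genes, such as TDH2, TEF1, EFT1, TIF1 and HHF2, have no 1-gene probe set under their own symbol and are not analysed here.

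The values deposited by the authors are array intensities on a linear scale, which the submitters' processing notes credit to MAS5. Its version and scaling target are not stated in the sources used. All 4 arrays had trimmed means of 1000.43 to 1000.45 (2% left out at each end), so they had been scaled to a common level, and amounts of mRNA per cell are outside what the values show. No further normalization was applied. Signals were averaged over the 4 WT arrays on the linear scale, and shares are of the summed signal of all 5498 probe sets on an array. Arrays give no read depth, and their number, 4, limits the precision.

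The report is a description of 1 group, so no groups were compared, and the only test was that for single outlying cultures by Dixon's ratio. Ranking and classes were checked on simulated data. The members, gene lists and families were put together from general knowledge of yeast with earlier results of these data known. Protein sequences were not used, and gene pairs are therefore the families of 2 genes in those lists. The genes named are the 25 brightest, the 3 brightest and 3 dimmest of each list, all family members, the 10 most variable genes of the upper 50%, the 5 pairs of largest ratio, the 3 probe sets on each side of both limits, and the 5 brightest genes with a systematic name. Some genes this rule names are not reported here. LEU2, YIL082W-A, YGR109W-B and the ribosomal protein pairs of extreme ratio were named outside this rule after their values were seen, as were further genes of the phosphate and pheromone lists. Python 3.11.15, pandas 2.3.3 and numpy 2.4.6 were used. Alternatives were the 99th percentile as background, limits of 3 and 10 times it, other summaries of the arrays, quantile normalization and subtraction of the S. pombe median. Further ones were omission of single arrays or of the pairs 1 and 4 or 2 and 3, and omission of shared probe sets with the genes they represent.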

Additional observations from a re-analysis of the deposited data

Results flagged for a closer look

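For each named gene and each gene list, the culture farthest from the other 3 was compared with the whole range of the 4 values by Dixon's ratio. Of 551 sets of 4 values, 23 (4.17%) exceeded its 95% critical value. Chance flags about 1 in 20, and over all genes 212 (3.89%) were beyond it, a share near that of the named sets. Culture 3 was the highest in 14 of the 23. YIL082W-A and some of the pheromone genes among them were named after their values were seen. The share of the pheromone list also counts its genes again. The tally by culture is therefore partly set by that choice, and none was made over all genes.

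Most of these 14 were genes of the pheromone response. Culture 3 had 7778 units for AGA1, against 1774 to 2348 in the other 3 cultures, 3584 for FIG2, against 914 to 1206, and 2059 for FUS1, against 655 to 842. FIG1 had 509, against 28.2 to 44.9, PRM2 had 274, against 62.4 to 69.4, and PRM3 had 220.0, against 63.5 to 88.8. FAR1 had 4030.3, against 1789 to 2134, STE3 had 8818, against 6074 to 6195, and YIL082W-A had 4525, against 1065 to 1276. Pheromone-induced genes together held 0.175% of the summed signal in culture 3, against 0.0558% to 0.0740% in the others. The labels name no difference between these cultures.

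The 4 other high values of culture 3 were 82.7 for ALP1, against 52.5 to 56.3, 6676 for HXT4, against 4993 to 5142, 3508 for PAU23, against 3285 to 3314, and 3848 for the median of RNA polymerase genes, against 3509 to 3549. Culture 3 was lowest for ALD3 at 66.7, against 89.0 to 92.6, for HHF1 at 7921, against 8855 to 9013, and for HHT2 at 8671, against 10893 to 11323. Culture 1 was highest for EFT2 at 14230 and for SSA2 at 15868, and lowest for HEF3 at 108. Culture 2 was highest for HSP12 at 2012, against 135 to 302, and for MDH2 at 3167. Culture 4 was lowest in the share of amino acid synthesis genes, at 3.04%, against 3.22% to 3.25%.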

How the results depend on the processing

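The counts of probe sets above background (5273 to 5420 under the alternatives, against 5397) and near background (213 at a limit of 3 times the background, 460 at 10 times, 403 with the 99th percentile and 292 to 328 under the others, against 312) stayed within 1.5 times, as did the counts of gene pairs (28 to 30 with a fixed order, against 30, and 12 to 14 with a ratio of 4 or more, against 13). The 28 came from leaving out shared probe sets, which dropped the 2 pairs that have one. The order of those pairs by specific sets was not part of this count. The shares moved by less than 1 SD under every alternative except 1 chosen after the data were seen. That alternative left out all shared probe sets. A gene whose brightest set was shared was dropped, and its specific set was not put in its place. This removed 25 of the 127 ribosomal protein genes. The remaining ones held 9.74% of the summed signal, in place of 11.7% for all 127, and glycolysis held 1.76% in place of 1.68%. Leaving out 1 array at a time gave 25.3% to 25.7% for the top class, 11.6% to 11.8% for ribosomal proteins and 1.64% to 1.70% for glycolysis.

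Single genes depended more on the cultures. Without cultures 1 and 4, 32 of 448 named genes moved by over 1.5 times, and without cultures 2 and 3, 24 did. HSP82, for one, came to 879 and 7224. Culture 3 alone moved 5 of them that far, AGA1, FIG1, FIG2, PRM2 and YIL082W-A, which without it averaged 2133, 35.2, 1068, 66.8 and 1147. Without culture 2 HSP12 averaged 238 in place of 681, and without culture 4 BTN2 averaged 1332 in place of 2244 and RGI1 1108 in place of 1790.5. For sugar and polyol genes the number near background was 10 at 10 times the background, against 3. Pairs chosen by protein identity, also at 60% and 90%, were not run. No paired analysis was possible because 1 group was described and no groups were compared.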

Other observations

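Of the 260 genes in the top class, 226 belonged to a gene list, and the other 34 were named after their values were seen. Several act beside the ribosome. EGD2 and EGD1, the subunits of the nascent polypeptide-associated complex, averaged 13647 ± 1009 and 13870.1 ± 817, ASC1, a core ribosome-associated protein, averaged 12445 ± 710.2, and STM1, which binds idle ribosomes, averaged 12474 ± 399.8. Others serve basic metabolism. IPP1, the inorganic pyrophosphatase, averaged 13113 ± 445, ADK1, adenylate kinase, 10496 ± 407, and SAH1, which removes S-adenosylhomocysteine, 10119 ± 302. PSA1 and SEC53, which make mannose donors for glycosylation, averaged 9699 ± 665 and 9257 ± 278. ITR1, the inositol transporter, averaged 9234 ± 941, GSP1, the Ran GTPase, 11645 ± 423, and BMH1, a protein of the 14-3-3 family, 10487 ± 801.

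The least variable genes of the upper 50% had SDs under 1% of their means. LCB1, of sphingolipid synthesis, had 4020.3, 3998, 3998 and 4006 in cultures 1 to 4, TIP1, a cell wall mannoprotein, had 10085, 9997, 10008 and 10019, and ELO3, a fatty acid elongase, had 7603, 7524, 7584 and 7593. ACT1, often used as a loading control, averaged 13556 ± 245.

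The gene lists held 57 of the 301 near-background genes (18.9%), against 22.6% of all genes. Probe sets of the same gene could differ strongly. For DOG2 the shared set averaged 1768 and the specific one 133, and for AAD4 the values were 1050.3 and 91.5, so the brightest set of such a gene can stand far above its own specific signal.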
